A study of Mus musculus with 9 samples.

Results

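The genes described here lie around Rag1 on mouse chromosome 2, the gene for a component of the enzyme that rearranges antigen receptor genes. They were chosen by position and by reads: protein-coding genes that overlap chr2:91638282-111649501 (GRCm38), which is 10 Mb on each side of Rag1, with at least 10 reads in at least 3 of the 9 libraries. Genes of a few symbol families were left out, and Rag1 and Rag2 were kept by name. Of 121 protein-coding genes in the window, 23 were left out by symbol and 20 had too few reads, which left 78 genes. Rag2, which was among the 20, brings the total to 79 of 56246 genes in the count table. All 78 passed the filter on low counts and were tested, no gene met the read criterion through 1 group alone, and Rag2 was not tested.

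The libraries were made from whole prefrontal cortex (PFC) of male mice on a C57BL/6 background aged 8 to 12 weeks and perfused with saline. One group was WT, with replicates 1, 3 and 6. The second was Rag1-/- given medium (vehicle), with replicates 1, 2 and 3. The third was Rag1-/- given extracellular vesicles (EVs) from the blood of WT mice by vein, with replicates 2, 3 and 5. For WT the treatment field reads as none, yet the titles of those samples bear the medium mark seen on vehicle samples. The study's supplement describes the WT mice of this comparison as injected with medium. All 6 Rag1-/- libraries carry the same allele, bred from 1 commercial line, and what that allele lacks is not given in the sources used here. The question put to these genes was whether they differ between the genotypes and whether they move when EVs replace vehicle.

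RAG1 and RAG2 together cut DNA beside V, D and J gene segments in developing lymphocytes, so that the segments can be joined into antigen receptor genes. Mice without either protein have no mature T or B cells. Genes that sit near a targeted allele are inherited with it, so animals that carry the allele also share the stretch of chromosome around it.

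The regions around the transcription starts of 4 members are shown. Below, Rag1, Immp1l and Cd59b had an adjusted p under 0.05 in edgeR for both Rag1-/- groups together against WT. Pamr1 did too and is not shown, and the EV libraries overlapped WT in Immp1l. Cd59a is the neighbouring copy of Cd59b. Each region runs from 250 bases before to 50 bases after the start, 5′ to 3′ on the strand of the gene, from RefSeq on GRCm38.p6. Capitals mark CCAAT, the letters that the transcription factor NF-Y binds, or its reverse complement ATTGG. The Rag1 window is chr2:101649483-101649782 on the minus strand. The others lie on the plus strand, Immp1l at chr2:105904388-105904687, Cd59b at chr2:104070816-104071115 and Cd59a at chr2:104095551-104095850.
Rag1: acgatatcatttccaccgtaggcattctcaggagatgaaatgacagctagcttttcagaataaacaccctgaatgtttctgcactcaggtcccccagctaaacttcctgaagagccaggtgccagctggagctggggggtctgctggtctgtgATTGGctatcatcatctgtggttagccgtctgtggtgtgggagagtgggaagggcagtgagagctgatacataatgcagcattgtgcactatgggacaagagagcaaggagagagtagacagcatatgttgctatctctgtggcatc
Immp1l: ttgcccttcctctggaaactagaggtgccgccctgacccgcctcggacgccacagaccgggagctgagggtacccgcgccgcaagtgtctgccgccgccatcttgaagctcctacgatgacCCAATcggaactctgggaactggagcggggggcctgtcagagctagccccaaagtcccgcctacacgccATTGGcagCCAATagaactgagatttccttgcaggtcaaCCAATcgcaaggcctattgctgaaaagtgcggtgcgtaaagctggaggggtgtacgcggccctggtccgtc
Cd59b: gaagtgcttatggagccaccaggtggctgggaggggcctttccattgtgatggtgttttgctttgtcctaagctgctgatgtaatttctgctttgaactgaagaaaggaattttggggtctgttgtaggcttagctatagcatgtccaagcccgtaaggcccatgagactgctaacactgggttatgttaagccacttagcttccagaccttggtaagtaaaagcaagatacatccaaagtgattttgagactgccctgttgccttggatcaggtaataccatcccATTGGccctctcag
Cd59a: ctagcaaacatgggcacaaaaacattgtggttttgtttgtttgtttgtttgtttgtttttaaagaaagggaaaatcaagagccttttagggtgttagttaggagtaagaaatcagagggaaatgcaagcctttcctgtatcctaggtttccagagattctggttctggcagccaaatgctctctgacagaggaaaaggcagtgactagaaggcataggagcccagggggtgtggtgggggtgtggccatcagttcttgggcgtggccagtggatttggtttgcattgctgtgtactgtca
The Rag1 window held 1 ATTGG, the Immp1l window 3 CCAAT and 1 ATTGG, the Cd59b window 1 ATTGG, and the Cd59a window neither. The window of Elp4, which is read in the other direction, shared 173 bases with that of Immp1l. Start regions were found for 63 of the 79 genes, and 26 of these (41.3%) had CCAAT or ATTGG in at least 1 of them, beside 41.1% of 27025 genes and 37.4% of 32851 start regions of the same length in the RefSeq table.

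The libraries held 32047740 to 41228076 reads on genes, of which the 78 tested genes took 0.403 to 0.469%. WT replicate 6 stood apart. It had 30.1% of its reads outside annotated exons, while the other 8 libraries had 6.54 to 11.2%, and it lay at the far end of the first principal component of all tested genes, which held 58.0% of the variance. Vehicle libraries had 6.54 to 6.90% of reads outside exons, EV libraries 7.73 to 11.2% and WT libraries 8.11 to 30.1%. All vehicle libraries thus lay below all WT and all EV libraries, and EV libraries overlapped WT. The exact permutation test gave a two-sided p of 0.1 for vehicle against WT and for EVs against vehicle, the smallest that 3 against 3 allows. It gave 0.5 for EVs against WT. With this share as a covariate, 8 of the 78 genes had an adjusted p under 0.05 between EVs and vehicle in edgeR. Without it 3 did. The share of all genes called in the covariate fit is not given here, and the part of reads outside exons in these calls was not tested further. Levels are given in CPM (the counts of a gene per 1e6 reads of tested genes, with each library's total scaled by its TMM factor in edgeR). The 5 markers of excitatory cortical neurons summed to 6791 to 7165 CPM in WT, 5336 to 5618 CPM in vehicle and 6250 to 7282 CPM in EV libraries, but the markers did not move together. In vehicle against WT 3 of the 5 were called higher and 1 lower (median log2 fold change 0.44), and in EVs against vehicle 1 was called higher and 3 lower (median −0.39). Their part in the results below was not tested. The 8 markers of T and B cells summed to 0.437 to 1.26 CPM over all libraries, and none was at 0 in every library. The study gives the group sizes of this sequencing in mice, and they equal the numbers of libraries per group. It does not state outright that each library came from its own mouse. The p-values measure the spread between these libraries. In whole tissue, fewer cells of a type cannot be told apart from less RNA per cell.

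Reads over Rag1 were higher in the libraries labelled Rag1-/-. Rag1 (ENSMUSG00000061311.6, chr2:101638282-101649501, minus strand) was at 1.09, 0.842 and 0.232 CPM in WT replicates 1, 3 and 6, which is 37, 32 and 9 reads. The vehicle libraries (replicates 1, 2 and 3) had 7.82, 7.04 and 6.85 CPM, and the EV libraries (replicates 2, 3 and 5) had 6.80, 7.32 and 6.26 CPM. All 6 Rag1-/- libraries lay above all 3 WT libraries, and the mean of the 6 was 9.73 times that of WT. The difference was 2.69 on the log2(CPM + 0.5) scale (exact permutation test over the 9 libraries, two-sided p = 0.0238, the smallest that 6 against 3 allows). In the edgeR fit of all genes the log2 fold change was 3.34 ± 0.34 (SE, adjusted p = 0.0127) for vehicle against WT, 3.25 ± 0.34 (adjusted p = 0.0173) for EVs against WT, and −0.09 ± 0.28 (adjusted p = 0.871) for EVs against vehicle. Counts per gene do not show which part of Rag1 the reads fall in, so they check neither the targeted change nor the absence of the protein. For its Rag1-/- mice the study reports less CD3ε protein, likely from T cells, in blood EVs. It also reports no recovery of T or B cells in the spleen after WT EVs. By Western blot the study detected neither Rag1 nor Rag2 protein in WT brain, prefrontal cortex included. The groups are named here as the labels name them. Without WT replicate 6 the log2 fold change of both Rag1-/- groups against WT was 2.86 (adjusted p = 5.6e-06), beside 3.29 ± 0.32 (adjusted p = 0.00779) with it. The call against WT was lost without vehicle replicate 2 or 3 for vehicle (adjusted p = 0.103 and 0.0817), without EV replicate 3 or 5 or vehicle replicate 2 or 3 for EVs (0.0598 to 0.127), and without EV replicate 2 or vehicle replicate 1 or 2 for both groups (0.0516 to 0.0566), while the log2 fold change lay between 2.82 and 3.78 in every fit of these 3 comparisons that left out 1 library.

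Rag2 lies beside Rag1 in the opposite orientation and was close to absent. It had 1, 2 and 4 reads in WT replicates 1, 3 and 6, 0, 1 and 0 in vehicle replicates 1, 2 and 3, and 0, 0 and 6 in EV replicates 2, 3 and 5, so no difference was detectable at this depth. Both genes lie within the span of B230118H07Rik, whose exons overlap those of Rag1 and Rag2 over 6.71% of their length. Reads that matched more than 1 gene were set aside as ambiguous in the count table. B230118H07Rik itself was at 12.3, 10.7 and 9.80 CPM in WT, 11.2, 11.9 and 12.3 CPM in vehicle and 11.96, 12.2 and 10.99 CPM in EV libraries, and the 3 groups overlapped.

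**Figure D1:**
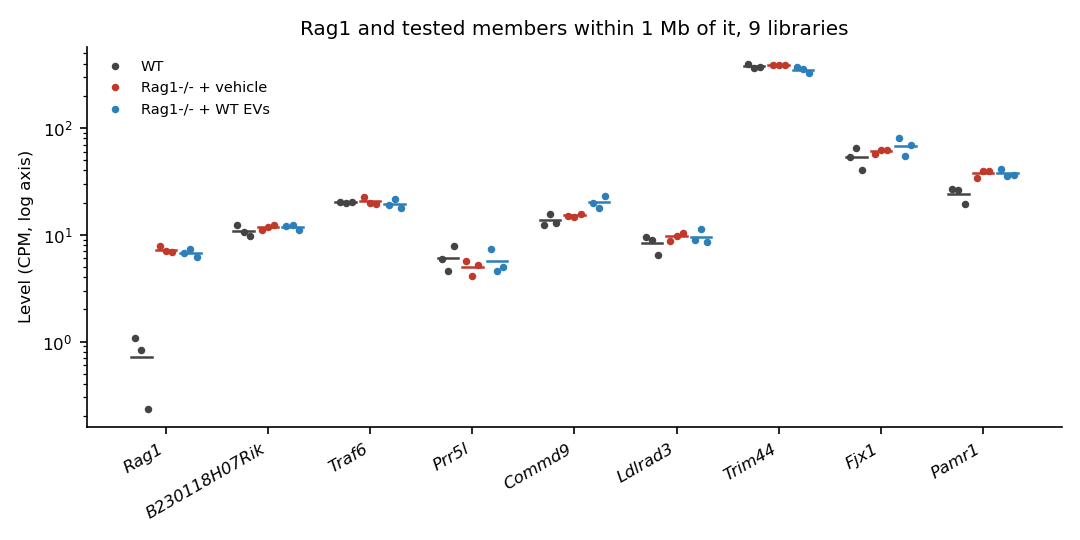
Level in CPM (log axis) of Rag1 and the other 8 tested genes within 1 Mb of it, with 1 point per library, a line at each group mean, and the groups WT, Rag1-/- + vehicle and Rag1-/- + WT EVs side by side. Rag1 lies at 0.232 to 1.09 CPM in WT and at 6.26 to 7.82 CPM in the 6 Rag1-/- libraries, and Pamr1 is the other gene whose groups do not overlap by genotype.

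Within 1 Mb of Rag1, 9 genes were tested and 2 were called higher, in vehicle against WT (beside 6.28% of all genes tested) and in both groups against WT (beside 0.891%), and 1 of the 2 was Rag1 itself. Besides Rag1 this was Pamr1, which lies 0.90 Mb from it and encodes a secreted peptidase-domain protein described in regenerating muscle. Pamr1 (ENSMUSG00000027188.8) was at 26.8, 26.4 and 19.5 CPM in WT, 34.1, 39.9 and 39.3 CPM in vehicle and 41.1, 35.8 and 36.3 CPM in EV libraries. All 6 Rag1-/- libraries lay above all WT libraries. The log2 fold change was 0.64 ± 0.13 for vehicle against WT (edgeR, adjusted p = 0.0214) and 0.64 ± 0.13 for EVs against WT (adjusted p = 0.0978), and 0.64 ± 0.11 for both groups together (adjusted p = 0.0484). Without WT replicate 6 it was 0.51 in both of the comparisons that were called (adjusted p = 0.0137 for vehicle and 0.0495 for both groups). The vehicle call was lost without WT replicate 1 or any 1 vehicle library (adjusted p = 0.0518 to 0.112), and the call for both groups was kept only without WT replicate 3 or 6 (otherwise 0.0717 to 0.116).

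The other neighbours were not called. Traf6, a ubiquitin ligase of interleukin-1 and Toll-like receptor signalling, starts 0.03 Mb from Rag1 and was at 20.5, 19.8 and 20.2 CPM in WT, 22.6, 19.8 and 19.5 CPM in vehicle and 19.0, 21.8 and 17.9 CPM in EV libraries. Prr5l, a partner of mTOR complex 2, was at 5.95, 4.55 and 7.80 CPM in WT, 5.64, 4.15 and 5.25 CPM in vehicle and 7.33, 4.56 and 5.02 CPM in EV libraries. In both genes every group overlapped the others. Commd9, of the COMMD family that acts in endosomal sorting, was at 12.5, 15.5 and 13.0 CPM in WT, 14.98, 14.7 and 15.8 CPM in vehicle and 19.97, 17.8 and 23.1 CPM in EV libraries. Its EV libraries lay above the other 6, with a log2 fold change of 0.42 ± 0.12 against vehicle (edgeR, adjusted p = 0.0743) and 0.57 ± 0.12 against WT (adjusted p = 0.117). Ldlrad3, a membrane protein with a low-density lipoprotein receptor domain, was at 9.63, 8.97 and 6.54 CPM in WT, 8.70, 9.83 and 10.4 CPM in vehicle and 8.89, 11.3 and 8.48 CPM in EV libraries. Trim44, of the tripartite motif family, was at 394.8, 363.2 and 375.0 CPM in WT, 386.6, 386.5 and 387.5 CPM in vehicle and 368.9, 359.1 and 328.5 CPM in EV libraries. Fjx1, the four-jointed homologue, was at 53.7, 64.4 and 40.7 CPM in WT, 56.9, 61.5 and 62.7 CPM in vehicle and 80.8, 55.0 and 69.4 CPM in EV libraries. In these 3 genes WT overlapped the Rag1-/- libraries.

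Over the whole window, 9 of 78 genes were called between vehicle and WT at an adjusted p under 0.05. Of these 5 were higher (6.41%), beside 6.28% of all 17948 genes tested (adjusted p-values are Benjamini-Hochberg values of the edgeR fit over these genes), and 4 were lower (5.13%), beside 9.71%. The shares called were near the background in the higher direction and below it in the lower. The median log2 fold change of the 78 was 0.07, beside −0.03 over all genes. Between EVs and WT, Rag1 was the 1 gene called higher (1.28%, beside 0.039% of all genes). None was called lower, beside 0.00557% of all genes, while 8 were lower at an unadjusted p under 0.05 and DESeq2 and limma-voom also called 0. The comparisons against WT share the WT libraries and are not independent. For both Rag1-/- groups against WT, Rag1 and Pamr1 were higher (2.56%, beside 0.891%) and Cd59b and Immp1l lower (2.56%, beside 2.54%). Between EVs and vehicle, which share the Rag1 allele, Pax6 and Pex16 were higher (2.56%, beside 2.17%) and D430041D05Rik lower (1.28%, beside 1.24%). With DESeq2's size factors the split of higher and lower calls was 7 and 4 for vehicle against WT, 2 and 0 for both groups against WT and 1 and 1 for EVs against vehicle, and with upper-quartile factors it was 4 and 9, 2 and 4, and 2 and 1. Without WT replicate 6 the counts were 5 for vehicle against WT, 1 for EVs against WT, 2 for both groups against WT and 9 for EVs against vehicle, while 8.21%, 0.255%, 0.161% and 16.5% of all genes were called. With the share of reads that fell outside exons added as a covariate, Rag1 alone was called in each comparison against WT. The shares of all genes called with the other size factors and with this covariate are not given here. The count for vehicle against WT was 0 without vehicle replicate 3, as over all genes. It was 1 without vehicle replicate 1 (beside 0.0158% of all genes) or WT replicate 1 (beside 0.00536%) and 5 without EV replicate 3 (beside 7.5%). In fits where almost no gene of the series was called, a lost call does not set that gene apart from the others. Without WT replicate 3 the 4 counts were 29, 8, 29 and 6 while 35%, 8.16%, 29.1% and 6.99% of all genes were called, and without vehicle replicate 2 they were 0 in each comparison, as over all genes, with 24, 13, 19 and 10 genes at an unadjusted p under 0.05.

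**Figure D2:**
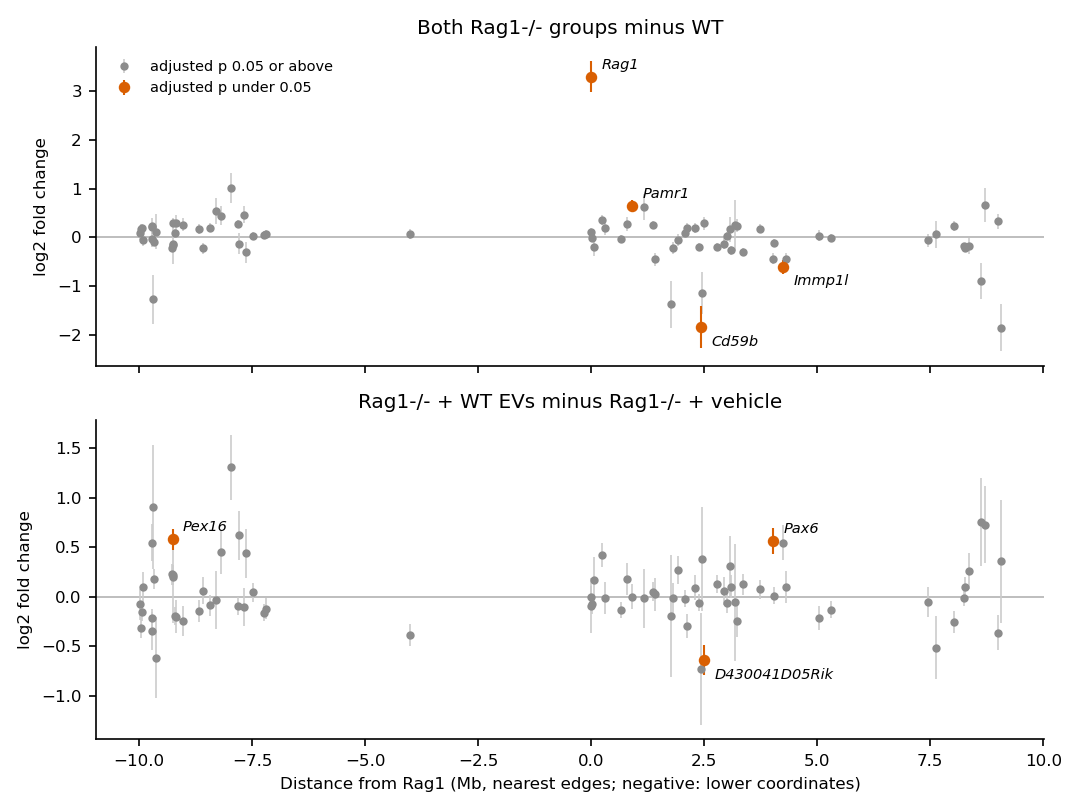
Log2 fold change (points, with bars of 1 SE) of the 78 tested genes against their distance from Rag1 in Mb, for both Rag1-/- groups minus WT (upper) and for EVs minus vehicle (lower), with genes at an adjusted p under 0.05 in orange. Rag1 stands at 3.29 in the upper panel, the other called genes lie between 0.90 and 4.26 Mb on 1 side of it, and in the lower panel Pex16 lies at −9.26 Mb.

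By distance, for both Rag1-/- groups against WT, 2 of 9 genes were called within 1 Mb, 2 of 27 between 1 and 5 Mb and 0 of 42 between 5 and 10 Mb, where 14 had an unadjusted p under 0.05. Over all genes tested 0.891% were called higher and 2.54% lower in that comparison, and a change with distance was not tested. The median log2 fold changes in these bands were 0.20, −0.12 and 0.07, beside −0.02 over all genes. Of the genes called against WT in vehicle, Ambra1 and Ext2 lie at −9.72 and −7.82 Mb from Rag1 (towards lower coordinates) and Muc15 at 9.07 Mb. At the edges of the window, Zfp408 was the farthest gene taken towards lower coordinates, at −9.99 Mb. Ckap5, at −10.02 Mb, was the nearest gene beyond that edge that met the symbol and read criteria. Muc15 was the last gene taken on the other side. The next protein-coding gene there that met these criteria was Lpcat4 at 10.59 Mb. At the edge of the read criterion, Prrg4 had 12 reads in its third-highest library and was taken, and Slc5a12 and 4931422A03Rik had 9 and were not.

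On CPM, all 6 Rag1-/- libraries lay above all 3 WT libraries in 4 of the 78 genes (5.13%, beside 3.42% of all genes) and below them in 6 (7.69%, beside 3.63%). Rag1, Pamr1, Ext2 and Tspan18, a tetraspanin, were above. Cd59b, Elf5, Apip, Dnajc24, Elp4 and Lin7c were below. Without WT replicate 6 the counts were 6 (7.69%, beside 4.76%) and 9 (11.5%, beside 4.99%), and without WT replicate 3 they were 12 and 12 (15.4% each, beside 13.8% and 14.1%). Without EV replicate 5 they were 5 and 10 (6.41% and 12.8%, beside 5.89% and 6.94%), and without WT replicate 1 they were 7 and 6 (8.97% and 7.69%, beside 4.98% and 5.62%).

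Among the immune genes, Cd59b was lower in both Rag1-/- groups together than in WT, and its neighbouring copy Cd59a was not called in any comparison. Both encode surface proteins that stop assembly of the membrane attack complex of complement. Cd59b (ENSMUSG00000068686.12, 2.42 Mb from Rag1) was at 0.5004, 0.737 and 0.643 CPM in WT, 0.138, 0.319 and 0.212 CPM in vehicle and 0.0880, 0.214 and 0.0978 CPM in EV libraries, with no overlap by genotype. Its log2 fold change for both groups against WT was −1.84 ± 0.43 (edgeR, adjusted p = 0.0484). At this depth these were at most 28 reads in a library, and the call was kept only without WT replicate 3, with an adjusted p of 0.0741 to 0.12 when any other library was left out. Cd59a was at 1.35, 1.999 and 1.60 CPM in WT, 0.523, 0.771 and 0.659 CPM in vehicle and 0.499, 0.367 and 1.70 CPM in EV libraries, with a log2 fold change of −1.15 ± 0.43 (adjusted p = 0.11). The 2 genes share 30 sequences of 75 bases, which is 2.28% of those in Cd59b and 1.66% of those in Cd59a. Elf5, an epithelial ETS factor at 0.395 to 0.912 CPM in WT and 0.0612 to 0.306 CPM in Rag1-/- libraries, had a log2 fold change of −1.38 ± 0.49 (adjusted p = 0.0972). Cd44, a hyaluronan receptor, and Cd82, a tetraspanin, had values of 0.62 ± 0.27 and 0.44 ± 0.20 (adjusted p = 0.148 and 0.162).

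Pax6 was lower in vehicle than in WT and higher in EV than in vehicle libraries. It is a homeodomain transcription factor of the developing forebrain and eye and lies 4.02 Mb from Rag1. Pax6 (ENSMUSG00000027168.21) was at 12.3, 10.3 and 13.3 CPM in WT, 7.49, 7.81 and 6.50 CPM in vehicle and 10.4, 9.86 and 11.8 CPM in EV libraries. Vehicle lay below both other groups, which overlapped each other. The log2 fold change was −0.72 ± 0.13 for vehicle against WT (edgeR, adjusted p = 0.0191), 0.56 ± 0.13 for EVs against vehicle (adjusted p = 0.0462) and −0.16 ± 0.13 for EVs against WT (adjusted p = 0.54). Both called comparisons share the vehicle libraries. With WT replicate 6 left out the values were −0.63 (adjusted p = 0.0176) and 0.56 (adjusted p = 0.0107). The first call was lost without WT replicate 1 or any 1 vehicle library (adjusted p = 0.0518 to 0.112), and the second was kept only without WT replicate 3 or 6 (otherwise 0.075 to 0.234). The 6 astrocyte markers moved with Pax6, at a summed 1972 to 2448 CPM in WT, 1410 to 1608 CPM in vehicle and 2114 to 2256 CPM in EV libraries. Of these markers 4 were called lower in vehicle than in WT and 3 higher in EV than in vehicle libraries, and their part in the result for Pax6 was not tested.

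Other genes of transcription gave no call. Alx4, a homeobox gene of skull and limb mesenchyme, had the highest fold change of EVs against vehicle among the 78. It was at 1.35 ± 0.20 CPM in WT (SD, n = 3), 1.74 ± 0.23 CPM in vehicle and 4.31 ± 2.09 CPM in EV libraries, with a log2 fold change of 1.30 ± 0.33 for EVs against vehicle (edgeR, adjusted p = 0.054) and 1.67 ± 0.34 for EVs against WT (adjusted p = 0.102). Fibin, which encodes a secreted protein, was at 2.77 ± 0.78 CPM in EV libraries, 1.67 ± 0.25 CPM in vehicle and 1.35 ± 0.79 CPM in WT (adjusted p = 0.284 against vehicle). The 6 markers of meninges summed to 26.2 to 57.8 CPM in WT, 40.0 to 71.1 CPM in vehicle and 74.7 to 110.8 CPM in EV libraries, none of them at 0 in every library, with 1 called higher in each of the 4 comparisons, and their part in these values was not tested. For both Rag1-/- groups against WT, Qser1 was at −0.27 ± 0.10 (adjusted p = 0.111), the kinase gene Hipk3 at −0.19 ± 0.07 (adjusted p = 0.115) and Elp4, a subunit of Elongator, at −0.12 ± 0.07 (adjusted p = 0.301). Creb3l1, a membrane-bound transcription factor, was at −0.61 ± 0.41 for EVs against vehicle (adjusted p = 0.393).

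Among the genes of mitochondria, peroxisomes and metabolism, Immp1l was lower in vehicle than in WT libraries. It encodes a subunit of the peptidase of the inner mitochondrial membrane and lies next to Elp4, 4.26 Mb from Rag1. Immp1l (ENSMUSG00000042670.5) was at 16.9, 14.4 and 23.7 CPM in WT, 9.33, 9.83 and 10.8 CPM in vehicle and 13.5, 13.2 and 17.0 CPM in EV libraries. Vehicle lay below the other 6 libraries, and EV libraries overlapped WT. The log2 fold change was −0.88 ± 0.17 for vehicle against WT (edgeR, adjusted p = 0.0214) and −0.60 ± 0.15 for both groups against WT (adjusted p = 0.0499). It was −0.33 ± 0.17 for EVs against WT (adjusted p = 0.357) and 0.54 ± 0.18 for EVs against vehicle (adjusted p = 0.0983). With the covariate for reads outside exons the value was −0.44 for vehicle (adjusted p = 0.145) and −0.25 for both groups (adjusted p = 0.458). Without WT replicate 6, its highest library, the first was −0.65 (adjusted p = 0.016) and the second −0.37 (adjusted p = 0.168). The vehicle call was lost without WT replicate 1 or any 1 vehicle library (adjusted p = 0.0518 to 0.112), and the call for both groups was kept only without WT replicate 3 (otherwise 0.0717 to 0.168). Elp4, whose start region overlaps that of Immp1l, was at 16.3 ± 0.43 CPM in WT (SD, n = 3), 14.9 ± 0.67 CPM in vehicle and 15.03 ± 0.21 CPM in EV libraries.

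Pex16, needed to assemble peroxisomal membranes, was higher in EV than in vehicle libraries. Pex16 (ENSMUSG00000027222.14) was at 10.5, 10.6 and 9.88 CPM in WT, 10.2, 10.4 and 10.6 CPM in vehicle and 16.7, 13.5 and 16.5 CPM in EV libraries, so all EV libraries lay above the other 6. The log2 fold change was 0.58 ± 0.11 against vehicle (edgeR, adjusted p = 0.0302) and 0.59 ± 0.11 against WT (adjusted p = 0.0898). The first was kept without EV replicate 3, WT replicate 3 or WT replicate 6 and lost without any other library (adjusted p = 0.0553 to 0.177). Strand was not used in counting, and 7.15% of the exons of Pex16 overlap those of Large2 on the other strand, which had 5 reads in its third-highest library. For both groups against WT, Apip, an enzyme of methionine salvage, was at −0.46 ± 0.14 (adjusted p = 0.0701) and Pdhx, of the pyruvate dehydrogenase complex, at 0.25 ± 0.08 (adjusted p = 0.0858). Bbox1, the last enzyme of carnitine synthesis, was at −0.90 ± 0.36 (adjusted p = 0.129), and Accs at 0.62 ± 0.25 for EVs against vehicle (adjusted p = 0.167).

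**Figure D3:**
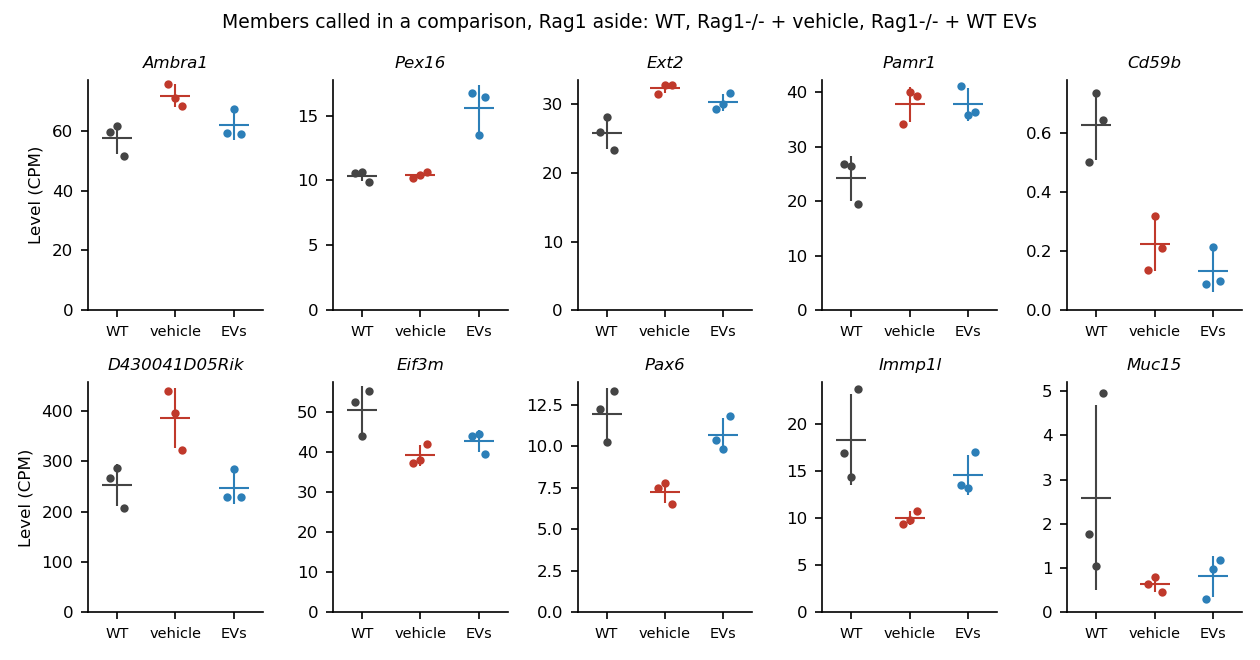
Level in CPM (linear axis from 0) of the 10 genes other than Rag1 called in any comparison, with 1 point per library, a dash at each group mean and a bar of 1 SD, for WT, Rag1-/- + vehicle and Rag1-/- + WT EVs (3 libraries each). In Pamr1 and Cd59b both Rag1-/- groups lie on 1 side of WT, in Pax6 and D430041D05Rik the vehicle libraries stand apart from both other groups, and in Muc15 1 WT library lies at 4.97 CPM.

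Ext2 and Ambra1 were higher in vehicle than in WT libraries and Eif3m was lower. Ext2, a polymerase of heparan sulfate chains, was at 26.0, 28.2 and 23.4 CPM in WT, 31.5, 32.8 and 32.8 CPM in vehicle and 29.3, 30.03 and 31.7 CPM in EV libraries, with a log2 fold change of 0.32 ± 0.09 for vehicle against WT (edgeR, adjusted p = 0.0373). Ambra1, a scaffold that starts autophagy, was at 59.4, 61.5 and 51.7 CPM in WT, 75.8, 71.1 and 68.4 CPM in vehicle and 59.3, 67.3 and 58.8 CPM in EV libraries, with a log2 fold change of 0.32 ± 0.09 (adjusted p = 0.0438). Eif3m, a subunit of translation initiation factor eIF3, was at 52.5, 43.9 and 55.2 CPM in WT, 37.2, 38.2 and 42.2 CPM in vehicle and 44.05, 44.7 and 39.5 CPM in EV libraries, with a log2 fold change of −0.37 ± 0.10 (adjusted p = 0.0377). In all 3 genes the vehicle libraries did not overlap WT, and in Ambra1 and Eif3m the EV libraries overlapped WT. When WT replicate 6 was left out the adjusted p was 0.0852 for Ext2, 0.0984 for Ambra1 and 0.0802 for Eif3m. The Ext2 call was kept without EV replicate 2 or 5 or WT replicate 3, and those of Ambra1 and Eif3m only without WT replicate 3, with an adjusted p of 0.0504 to 0.145 when another library was left out.

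D430041D05Rik, a gene with no role known here, was higher in vehicle than in both other groups. D430041D05Rik (ENSMUSG00000068373.15) was at 266.2, 285.9 and 206.3 CPM in WT, 439.1, 394.7 and 321.8 CPM in vehicle and 228.8, 284.8 and 228.8 CPM in EV libraries. Its log2 fold change was 0.61 ± 0.15 for vehicle against WT (edgeR, adjusted p = 0.0301) and −0.64 ± 0.15 for EVs against vehicle (adjusted p = 0.0464). The first was lost without WT replicate 1 or any 1 vehicle library (adjusted p = 0.0563 to 0.112), and the second was kept only without WT replicate 3 or 6 (otherwise 0.0621 to 0.225). Muc15, a cell surface mucin, was lower in vehicle than in WT libraries. It was at 1.77, 1.05 and 4.97 CPM in WT, 0.633, 0.797 and 0.471 CPM in vehicle and 0.293, 0.979 and 1.17 CPM in EV libraries, with a log2 fold change of −2.03 ± 0.61 (adjusted p = 0.0456). Leaving out WT replicate 6 gave −1.15 (adjusted p = 0.134), and when single libraries were left out the call was kept only without EV replicate 2 or WT replicate 3. The value was −0.54 with the covariate for reads outside exons (adjusted p = 0.641). Muc15 lies within the span of Ano3, on the other strand, and Gm9821 lies in the same way within Dgkz. Gm9821 was at 1.65 ± 1.54 CPM in WT (SD, n = 3), 0.497 ± 0.020 CPM in vehicle and 0.935 ± 0.475 CPM in EV libraries (adjusted p = 0.0745 for vehicle against WT).

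In the remaining roles, 1 gene of 14 in the group of neuronal signalling and trophic factors was called for both Rag1-/- groups against WT. This was Pamr1 (edgeR), which was assigned to that group by hand. No gene was called in that comparison for RNA processing, glycosylation or autophagy. Beside these counts, 0.891% of all genes tested were called higher and 2.54% lower in that comparison. Lin7c, a synaptic scaffold, was at −0.18 ± 0.07 (adjusted p = 0.117), Lgr4, a receptor for R-spondins, at −0.22 ± 0.09 (adjusted p = 0.121) and the neurotrophin gene Bdnf at 0.23 ± 0.10 (adjusted p = 0.154). Bdnf was at 23.8 ± 2.44 CPM in WT (SD, n = 3), 30.4 ± 3.08 CPM in vehicle and 25.5 ± 2.501 CPM in EV libraries, with a log2 fold change of 0.36 ± 0.11 for vehicle against WT (adjusted p = 0.0545). Its exons overlap Gm45346 on the other strand over 14.4% of their length. Lrrc4c, the netrin-G1 ligand, was at −0.38 ± 0.11 for EVs against vehicle (adjusted p = 0.0794). Among 8 genes of RNA processing and translation, Dnajc24, needed for diphthamide synthesis, was at −0.45 ± 0.14 (adjusted p = 0.0674), the RNA-binding protein gene Caprin1 at 0.18 ± 0.11 (adjusted p = 0.266) and the demethylase gene Alkbh3 at −0.31 ± 0.21 (adjusted p = 0.338). Among 4 genes of glycosylation and protein processing, Fbxo3 was at −0.19 ± 0.08, Rcn1 at 0.18 ± 0.08 and the sulfotransferase gene Chst1 at 0.26 ± 0.13 (adjusted p = 0.124, 0.181 and 0.214). Among 9 genes of autophagy, cytoskeleton and trafficking, Atg13 was at 0.19 ± 0.08 and Arhgap1 at 0.17 ± 0.09 (adjusted p = 0.132 and 0.239), and Kif18a at −0.51 ± 0.32 for EVs against vehicle (adjusted p = 0.363). The 25 tested genes not named here had log2 fold changes of −0.33 to 0.52 for vehicle against WT and −0.35 to 0.55 for EVs against vehicle, with a lowest adjusted p of 0.0563 and 0.113.

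**Figure D4:**
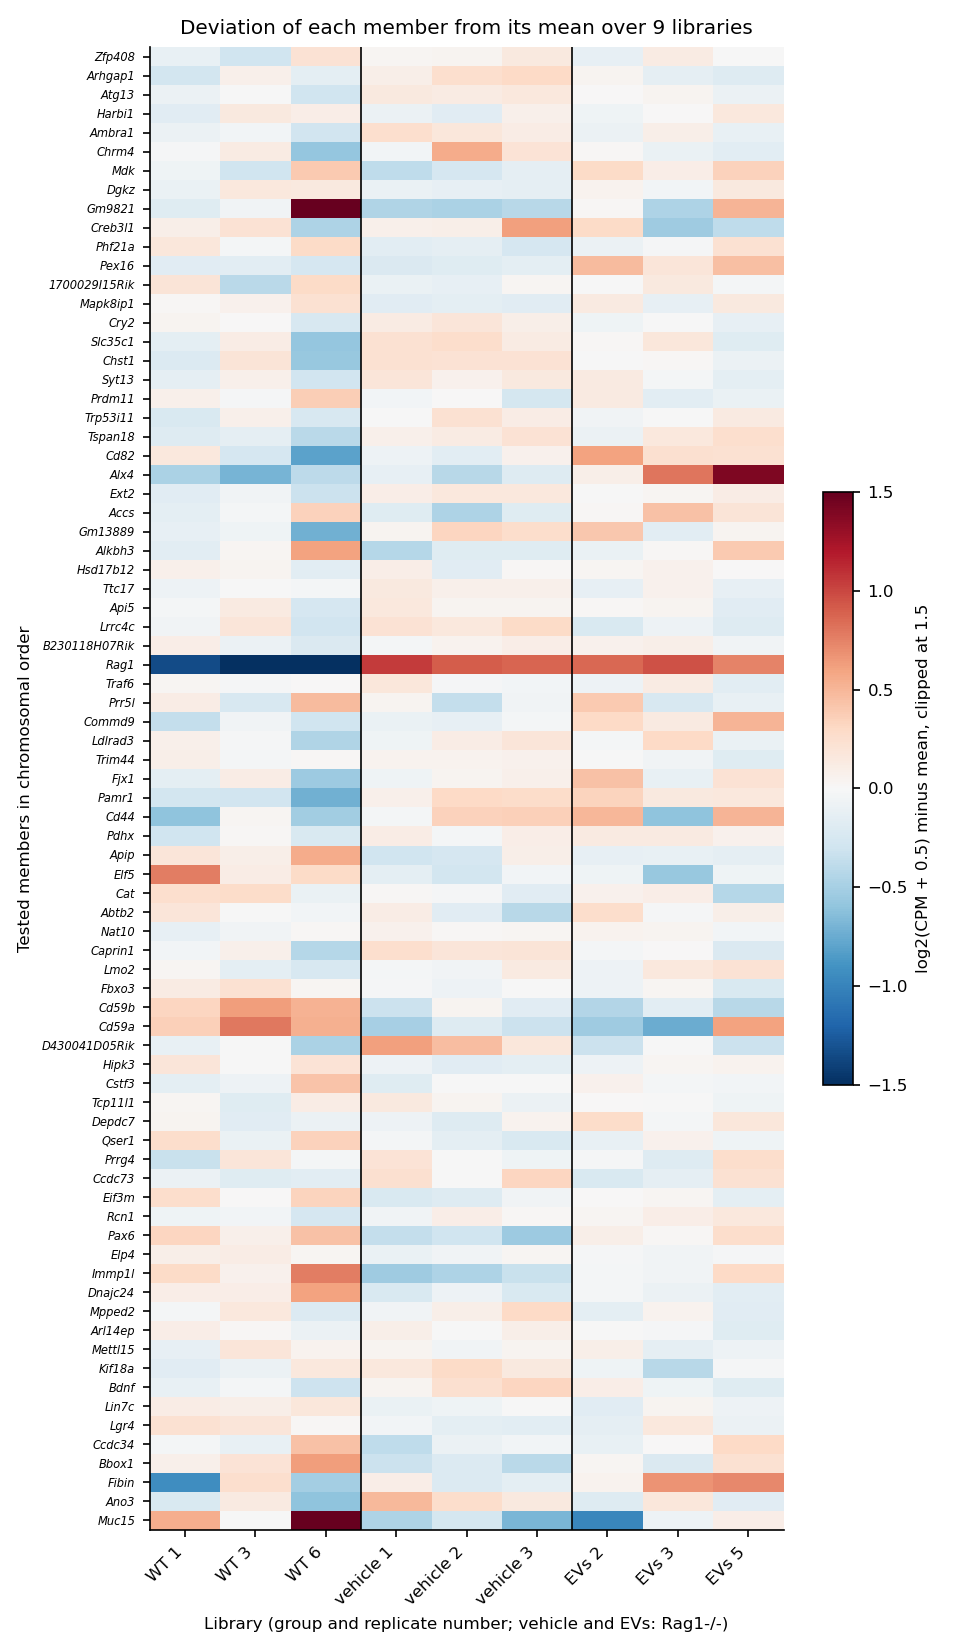
Log2(CPM + 0.5) of each of the 78 tested genes minus its mean over the 9 libraries (colour, clipped at 1.5), with genes in chromosomal order down the side and libraries by group across. Rag1 is the row with the clearest split by genotype, and WT replicate 6 holds the highest values of Gm9821 and Muc15.

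Per kilobase of exon, the levels of these genes ranged over all 9 libraries from 97.6 CPM per kb for Dgkz, a diacylglycerol kinase, to 0.0607 CPM per kb for Elf5 among tested genes and 0.0132 CPM per kb for Rag2. Chst1, Mapk8ip1, Trim44 and Syt13 followed Dgkz at 70.9, 68.7, 65.9 and 62.5 CPM per kb, and the ranges of these 4 over the libraries overlapped. Of the 79 genes, 11 averaged over 100 CPM and 6 under 1 CPM.

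Genes of V(D)J recombination and end joining outside the window were listed with Rag1 and Rag2. Of 15 genes listed, 13 were tested, and Rag1 was the 1 called in each comparison against WT. Over all genes tested, 6.28% were called higher and 9.71% lower in vehicle against WT. For EVs against WT these shares were 0.039% and 0.00557%, and for both groups against WT 0.891% and 2.54%. Paxx, an end-joining factor, was higher in EV than in vehicle libraries, at 18.9, 19.5 and 22.8 CPM against 15.4, 14.9 and 14.4 CPM (log2 fold change 0.46 ± 0.10, edgeR adjusted p = 0.035). It was the 1 listed gene called between EVs and vehicle, where 2.17% of all genes tested were called higher and 1.24% lower. Of 10 genes of BDNF signalling, 1 was called against WT, the adaptor Shc3, which was lower in vehicle (−0.73 ± 0.12, adjusted p = 0.0169) and in both groups together (−0.52 ± 0.10, adjusted p = 0.0484).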

How the data were processed

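RNA of prefrontal cortex was sequenced as 75-base pairs from a directional kit in 9 libraries, 3 per group. Per the labels and the study's methods, the authors used bcl2fastq 2.18.0.12, aligned to GRCm38 with STAR 2.7.5c and counted reads over GENCODE exons with HTSeq (0.11.1 in the labels, another version in the methods) at a minimum alignment quality of 10, without strand. The deposited values are raw counts per gene. The 5 summary lines of the table stayed out of library sizes and tests, and reads outside exons were taken from them as a share.

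Gene positions came from GENCODE release 21 on GRCm38 (the study names release 24), which matched 55144 of 56246 IDs. All 9 libraries entered 1 edgeR 4.0.16 quasi-likelihood fit (R 4.3.3) with TMM factors and filterByExpr (minimum count 10, minimum total 15). The 4 contrasts were adjusted by Benjamini-Hochberg over 17948 genes each, and called means an adjusted p under 0.05. SEs were taken as the log2 fold change over the root of F. CPM were computed with the TMM factors, and the permutation test used log2(CPM + 0.5), with scipy 1.17.1. Scripts were tested on simulated data. The alternatives were other scalings, filters, tools (DESeq2 1.42.0, limma 3.58.1), windows, a covariate, a replicate block and each library left out.

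The members and lists were chosen with earlier results of these data known. Genes named with every library's value were Rag1, Rag2, those called and those within 1 Mb of Rag1, and the others were those with the largest fold changes, those whose groups do not overlap by genotype and genes of each role. The recount of genes whose groups do not overlap with each library left out was chosen after seeing the data.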

Additional observations from a re-analysis of the deposited data

How the results depend on the processing

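For vehicle against WT, 9 of 78 members were called, beside 16% of all genes. The count was 16 with DESeq2, 19 with no filter on low counts, 5 with the replicate block and 1 with a covariate for reads outside exons. It was 26 of 218 genes in a window of 20 Mb on each side, and 0 with only the libraries compared (30 at an unadjusted p under 0.05). For EVs against WT, 1 was called (beside 0.0446% of all genes), and 5 with DESeq2, 6 with no filter and 0 with only the libraries compared (10 unadjusted). For both groups against WT, 4 were called, beside 3.43% of all genes. The count was 12 with DESeq2, 2 with DESeq2's size factors, 15 with no filter, and 1 each with limma-voom, only the libraries compared, the block and the covariate. For EVs against vehicle, 3 were called, beside 3.42% of all genes. The count was 8 with DESeq2 or the covariate, 6 with no filter, 6 with a minimum of 1 CPM in 3 libraries and 13 with only the libraries compared. It was 7 of 218 genes in the 20 Mb window, and 1 each with limma-voom, the block and a 1.5-fold minimum. The causes were not tested. The shares of all genes called with the other tools, scalings, filters, block and covariate are not given here, so those counts are not read as results about the members. With each library left out in turn the counts ranged from 0 to 29, 0 to 8, 0 to 29 and 0 to 9 in these comparisons. The shares of all genes called in the same fits ranged from 0 to 35%, 0 to 8.16%, 0 to 29.1% and 0 to 16.5%. The difference of Rag1 on the log2 scale ranged from 2.36 to 2.92, and without a WT library 0.0714 is the smallest two-sided p of the exact permutation test.

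The replicate numbers were not shown to pair the samples. The deviations of same-numbered libraries correlated at −0.07 to 0.10 across genes, with at most 2 shared numbers a comparison.

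Among the results recomputed, the fold changes that changed sign were in comparisons where the gene was not called. For both groups against WT, Traf6 was at 0.0213 with DESeq2, 0.0043 with DESeq2's size factors, 0.0508 with no filter, 0.10 with the block and −0.0297 to 0.0449 with a library left out. Trim44 was at 0.0216 with no filter and −0.0382 to 0.0205 with a library left out. Prr5l was at 0.11 with the block, 0.10 with the covariate and −0.34 to 0.0220 with a library left out. Ldlrad3 was at −0.0428 with the covariate and Fjx1 at −0.0225 with the block. Rag1 between EVs and vehicle was at 0.0399 with the block and 0.26 with the covariate.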
